A study of Mus musculus with 14 samples.

Results

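The cytochrome P450 genes were examined in the lungs of ventilated and non-ventilated mice. They were taken as every gene whose symbol in the probe-to-gene table of the array begins with Cyp followed by a digit. 68 probes matched, for 64 of the 13923 genes named on the array, which carried 19621 probes in all. Cyp4v3, Cyp4a12a, Cyp3a13 and Cyp2d13 had 2 probes each, and the probe with the higher mean over all 14 arrays stood for the gene. The RNA came from the right lung, and each CodeLink array, a single-colour oligonucleotide array, held the RNA of 1 animal. The 4 groups were wild-type control (C57/BL6, 3 arrays), wild-type ventilated (4 arrays), jnk1-/- control (3 arrays) and jnk1-/- ventilated (4 arrays), all in the C57/BL6 background. The jnk1-/- mice lacked jnk1, a stress-activated kinase, in every tissue. Ventilated mice received 8 h of mechanical ventilation at a tidal volume of 10 ml/kg, whereas control mice were killed directly after anesthesia with ketamine and acepromazine. By the methods, ventilated mice also received pancuronium bromide every hour to relax the chest muscles, and their lungs were recruited by inflation every hour. Ventilation therefore cannot be told apart from the hours of anesthesia and the muscle relaxant that went with it.

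Cytochrome P450 enzymes are heme proteins that insert an oxygen atom into their substrates. Members of families 1 to 3 act mainly on drugs, toxicants and other foreign compounds, members of family 4 and of the Cyp2j subfamily act on fatty acids and eicosanoids, and the remaining families act on sterols, steroids, bile acids, retinoids and vitamin D. Those of the endoplasmic reticulum draw their electrons from the reductase Por, those of mitochondria from the ferredoxin Fdx1. In the lung they are concentrated in club cells of the airway epithelium, and the aryl hydrocarbon receptor Ahr is the known inducer of family 1.

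All levels below are normalized log2 intensities, and a value of a probe was never set against that of another probe. P450 genes lie in clusters of near-identical copies, above all in the Cyp2a, Cyp2b, Cyp2c, Cyp2d, Cyp3a and Cyp4a subfamilies, and the probe sequences were not used here, so a probe may also have read a neighbouring copy. Before normalization the array medians ran from 4.98 to 6.37. Wild-type control replicates 2 and 3 held 10.7% and 6.98% of their values at the lowest number deposited, against 1.86% to 4.52% on the other 12 arrays. The probe for Mapk8, the gene symbol of jnk1, was dim in every group (5 of 14 arrays above the floor described next) and did not pass the test between the control groups (log2 change -1.47, limma adjusted p = 0.374), so it gave little check of the genotype labels. The jnk1-/- control lungs stood apart in markers of other tissues. The mean of 8 skeletal muscle genes was 9.20 to 9.71 on the jnk1-/- control arrays and 3.72 to 4.63 on the other 11, and that of 8 genes of stratified squamous epithelium was 8.11 to 9.43 and 2.62 to 4.80. Their part in the comparisons that use these 3 arrays was not tested.

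The authors' normalized table ends at a lowest value of 3.122, at which 24.5% of all its values lie. Of the 64 P450 genes, 41 (64.1%, against 75.2% of all probes) were above this floor on at least 7 of the 14 arrays and 31 were above it on all 14. Another 18 were above it on 1 to 6 arrays, and 5 on none. Cyp4f39 and Cyp20a1, at 7 arrays each, were the members just inside the limit, and Cyp11b2, at 4, was the nearest outside it. All 3 members of family 1 were above the floor, as were 20 of 30 in family 2, 9 of 12 in family 4, both members of family 27, and Cyp7b1, Cyp20a1, Cyp24a1, Cyp39a1, Cyp46a1 and Cyp51. Of family 3 only Cyp3a13 was above it, and Cyp3a11, Cyp3a16 and Cyp3a41a were not. The 5 genes at the floor on every array were Cyp7a1 and Cyp8b1, which make bile acids in the liver, Cyp11a1 and Cyp21a1, which make steroid hormones in the gonads and adrenal gland, and Cyp2c37 of a largely hepatic subfamily. The steroid enzymes Cyp17a1 and Cyp11b2, the retinoic acid hydroxylase Cyp26a1, and Cyp2c29, Cyp2c39, Cyp2c50, Cyp2c70, Cyp2d26, Cyp2j5, Cyp2j11, Cyp2j13, Cyp2r1, Cyp4a14, Cyp4a31 and Cyp4f14 were above it on fewer than 7.

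**Figure D1:**
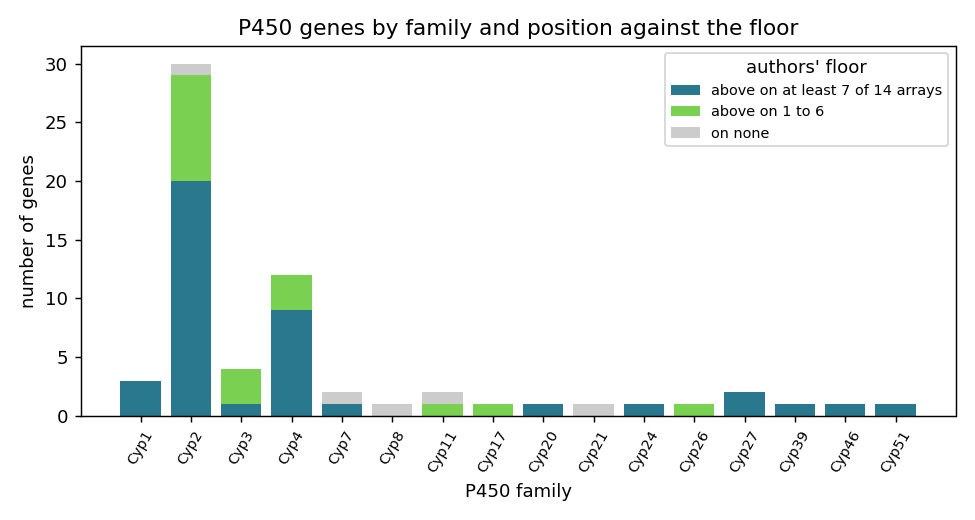
Number of P450 genes (vertical axis) in each Cyp family (horizontal axis), split by the number of the 14 arrays on which the gene's probe was above the lowest value of the authors' table. Families 1, 2, 4 and 27 hold most of the 41 genes above it, whereas families 8, 11, 17, 21 and 26 have none.

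How closely replicates repeated differed with a gene's position against the floor. The median within-group SD was 0.31 log2 units for the 31 genes above the floor on all arrays, 0.39 for the 41 above it on at least 7, and 1.41 for the 23 others, so that changes of the dim genes could not be resolved with 3 or 4 arrays a group. No member of these 23 passed the test in any comparison. Values at the lowest number deposited, and the lowest 1% of the others, were set here to a limit of -0.63. Among the 23, Cyp11a1 was at this limit on all 3 wild-type control arrays, and it read 1.06, 1.72 and 2.53 in the jnk1-/- controls (limma adjusted p = 0.103). All these values lie under the authors' floor.

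**Figure D2:**
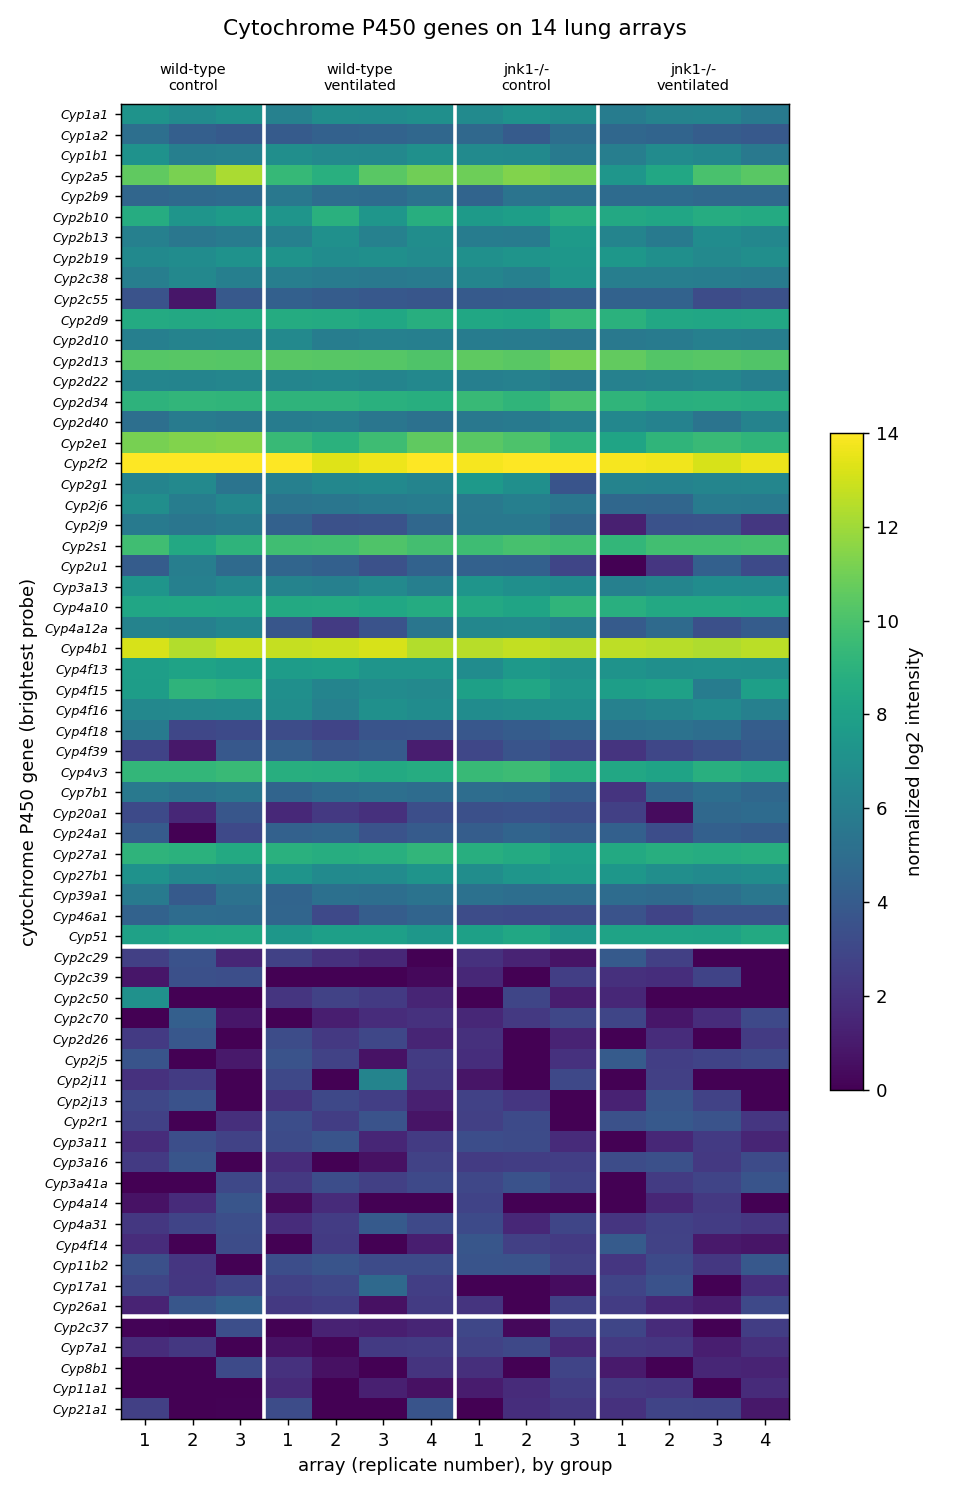
Normalized log2 intensity (colour, with values under 0 or over 14 at the ends of the scale) of the 64 P450 genes (rows, brightest probe, in family order) on the 14 arrays (columns, by group and replicate). White horizontal lines separate the 41 genes above the authors' floor on at least 7 arrays, the 18 above it on 1 to 6 and the 5 above it on none, and the 2 lower blocks vary from array to array within every group.

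Following mechanical ventilation a few P450 genes were lower, and no member was called higher. In wild-type lungs 1 of 64 members passed the test at an adjusted p under 0.05 over all probes, Cyp4a12a, which fell (3.66% of all probes were called, 2.18% higher and 1.49% lower). In jnk1-/- lungs 4 of 64 fell, namely Cyp1a1, Cyp2j9, Cyp4a12a and Cyp4v3, with 11.7% of all probes called, 6.73% higher and 5.02% lower. The shares of members, 1.56% and 6.25%, were below those of all probes. Of the 41 genes above the floor, 2.44% and 9.76% were called, against 4.34% and 15% of the probes above it. In the jnk1-/- comparison all 8 skeletal muscle genes and 7 of 8 squamous epithelial genes also fell, which was not tested for its part in these calls. In wild-type lungs no muscle gene passed and 1 squamous gene rose. Each of the 4 members had a negative change there too, from -0.31 to -2.47, of which only that of Cyp4a12a passed. A contrast that averages the ventilation change over both genotypes, added after the data had been seen, called 7 members, all of them lower and all above the floor (15.9% of all probes were called, 8.68% higher and 7.22% lower, and 19.9% of the probes above the floor against 17.1% of the 41 genes). These were Cyp1a1, Cyp2a5, Cyp2e1, Cyp2j9, Cyp4a12a, Cyp4f15 and Cyp4v3. Cyp2e1, Cyp2j9, Cyp4a12a and Cyp4v3 kept this call when any single array was left out (highest limma adjusted p = 0.0412), whereas Cyp1a1, Cyp2a5 and Cyp4f15 lost it without any of 7, 8 and 7 arrays (up to 0.0898, for Cyp2a5 without wild-type control replicate 3). By the methods' t-test with Benjamini-Hochberg adjustment no member passed in any of the 4 comparisons between groups, and in limma 12 and 10 of the 64 members had an unadjusted p under 0.05 for ventilation in wild-type and in jnk1-/- lungs, against 20.3% and 26.7% of all probes. The median change over the 41 genes above the floor was -0.05 in wild-type and -0.26 in jnk1-/- lungs, against 0.08 and -0.04 over all probes. As the RNA came from whole lung, fewer cells of a type and less RNA per cell cannot be told apart.

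Cyp4a12a, an arachidonic acid omega-hydroxylase of chromosome 4 (GRCm38.p6, chr4:115299046-115332815), had levels of 6.28, 6.09 and 6.49 in wild-type controls and 3.73, 2.45, 3.58 and 5.51 after ventilation. In jnk1-/- mice it had 6.49, 6.55 and 5.99 in controls and 4.02, 4.85, 3.42 and 4.10 after ventilation. All 8 ventilated lungs lay below all 6 control lungs, and ventilated wild-type replicate 2 was at the floor of the authors' table. Its log2 change was -2.47 ± 0.56 (SE) in wild-type (limma adjusted p = 0.0339) and -2.24 ± 0.56 in jnk1-/- lungs (limma adjusted p = 0.0245). The difference between the changes was 0.23 (95% interval -1.50 to 1.95). The wild-type call was lost when any of 7 single arrays was left out, with adjusted p up to 0.114 (without wild-type control replicate 3), and the jnk1-/- call without any of 4, with adjusted p up to 0.0781 (without jnk1-/- control replicate 2). The dimmer probe of the gene changed by -0.25 in wild-type (limma adjusted p = 0.614) and by -1.17 in jnk1-/- lungs, where it passed the test, so the probes differed on the wild-type change.

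Cyp2j9, a member of the arachidonic acid epoxygenase subfamily (chr4:96568424-96592523), had levels of 5.70, 5.49 and 5.73 in wild-type controls and 4.37, 3.45, 3.59 and 4.68 after ventilation. In jnk1-/- mice it had 5.62, 5.61 and 4.71 in controls and 1.21, 3.51, 3.61 and 2.25 after ventilation. No ventilated lung reached the lowest control of its own genotype. The change was -2.67 ± 0.53 in jnk1-/- lungs (limma adjusted p = 0.00909), a call kept when any single array was left out (adjusted p 0.00504 to 0.0408), and -1.62 ± 0.53 in wild-type lungs (limma adjusted p = 0.116). Averaged over the genotypes it was -2.14 (limma adjusted p = 0.00338). As 2 of the 4 ventilated jnk1-/- lungs, at 1.21 and 2.25, were at the floor of the authors' table, the sizes that rest on them are not resolved. With the authors' values the change was -1.81 in jnk1-/- (limma adjusted p = 0.00261) and -1.48 in wild-type lungs (limma adjusted p = 0.0146). After ventilation the jnk1-/- lungs were lower than the wild-type lungs by a log2 difference of -1.38 (95% interval -2.46 to -0.30), which did not pass the test over all probes (limma adjusted p = 0.352) and was -0.61 with the authors' values, so its size is not resolved either.

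Cyp4v3, the mouse counterpart of a fatty acid hydroxylase whose loss in man causes a crystalline retinopathy (chr8:45305801-45333163), had levels of 9.28, 9.30 and 9.51 in wild-type controls and 8.79, 8.73, 8.51 and 8.67 after ventilation. In jnk1-/- mice the controls had 9.42, 9.58 and 8.77 and the ventilated lungs 8.40, 8.13, 8.81 and 8.57. The wild-type groups did not overlap, whereas jnk1-/- control replicate 3 lay within the ventilated range. The changes were close in size, -0.69 ± 0.22 in wild-type (limma adjusted p = 0.105) and -0.78 ± 0.22 in jnk1-/- lungs (limma adjusted p = 0.0386), and the second probe of the gene also fell in jnk1-/- lungs (limma adjusted p = 0.0308). The jnk1-/- call was lost when any of 10 single arrays was left out, with adjusted p up to 0.144 (without jnk1-/- control replicate 2).

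Cyp4f15, of a subfamily that hydroxylates leukotrienes and fatty acids, had 7.78, 9.11 and 8.88 in wild-type controls and 6.96, 6.29, 6.73 and 6.60 after ventilation, without overlap. In jnk1-/- mice it had 7.97, 8.27 and 7.36 in controls and 7.82, 8.00, 5.86 and 7.88 after ventilation, where replicate 3 alone was below the controls. Its change was -1.94 ± 0.50 in wild-type (limma adjusted p = 0.0536) and -0.48 ± 0.50 in jnk1-/- lungs (limma adjusted p = 0.617), and the difference of 1.47 did not pass the test (95% interval -0.07 to 3.01, limma adjusted p = 0.408). Cyp4f18, which inactivates leukotriene B4 in neutrophils, changed by -0.60 and 0.81 (limma adjusted p = 0.611 and 0.417), while 5 and 6 of 7 neutrophil genes rose in wild-type and jnk1-/- lungs and their mean went from 5.76 to 6.23 on the control arrays to 8.40 to 9.18 on the ventilated arrays. The wild-type controls of Cyp4f18 read 5.74, 3.00 and 3.15. Of these, 2 were at the authors' floor, as was 1 ventilated wild-type lung, so the size of the wild-type change is not resolved. Its values after ventilation were 3.23, 2.85, 3.65 and 3.70 in wild-type and 5.19, 5.30, 5.06 and 4.12 in jnk1-/- lungs, a difference of 1.56 (limma adjusted p = 0.314). Cyp4b1, a lung-rich fatty acid hydroxylase that also activates toxicants, differed by -0.01 (95% interval -0.47 to 0.46) in wild-type and -0.08 (-0.54 to 0.39) in jnk1-/- lungs after ventilation. Cyp4a10 and Cyp4f13 did not pass the test in either genotype.

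**Figure D3:**
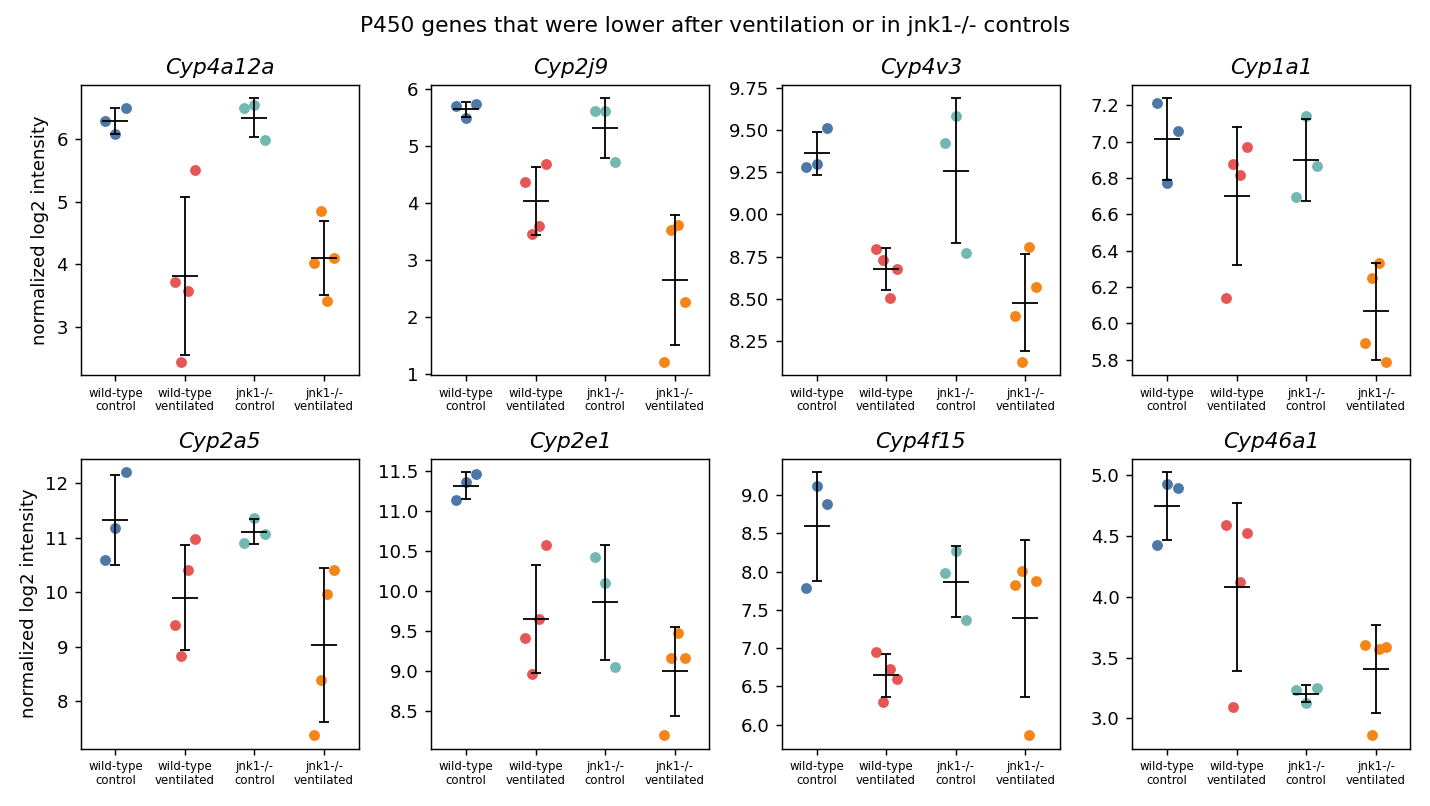
Normalized log2 intensity (vertical axes, each with its own range) of 8 P450 genes on every array (points) in the 4 groups, with the mean and SD of each group (black bars). Cyp4a12a and Cyp2j9 are lower after ventilation in both genotypes, Cyp4f15 is separated from its controls in wild-type lungs, and Cyp46a1 is lower in jnk1-/- than in wild-type controls.

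Among the genes of foreign-compound metabolism, Cyp1a1, the Ahr-induced oxidase of polycyclic aromatic hydrocarbons (chr9:57687928-57703824), had levels of 6.69, 7.14 and 6.87 in jnk1-/- controls and 5.89, 6.25, 6.33 and 5.79 after ventilation, without overlap. In wild-type mice it had 7.22, 6.77 and 7.06 in controls and 6.14, 6.88, 6.82 and 6.97 after ventilation, and these groups overlapped. It changed by -0.84 ± 0.24 in jnk1-/- (limma adjusted p = 0.0401) and -0.31 ± 0.24 in wild-type lungs (limma adjusted p = 0.503), and the difference of -0.52 did not pass the test (95% interval -1.25 to 0.20). Its jnk1-/- call was lost when any of 9 single arrays was left out, with adjusted p up to 0.137 (without jnk1-/- control replicate 2). The other members of family 1, Cyp1a2 and Cyp1b1, did not pass: Cyp1b1 changed by 0.33 (95% interval -0.42 to 1.08) in wild-type and -0.13 (-0.88 to 0.62) in jnk1-/- lungs.

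Cyp2a5, a coumarin and nicotine hydroxylase, had 10.59, 11.17 and 12.21 in wild-type controls and 9.40, 8.83, 10.40 and 10.98 after ventilation. In jnk1-/- mice it had 10.91, 11.36 and 11.06 in controls and 7.37, 8.39, 9.97 and 10.40 after ventilation, without overlap. The changes of -1.42 ± 0.72 (limma adjusted p = 0.294) and -2.08 ± 0.72 (limma adjusted p = 0.0835) passed the test when averaged, at -1.75 (limma adjusted p = 0.0360). The ventilated jnk1-/- lungs spread over an SD of 1.40, against 0.23 in their controls.

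Cyp2e1, an ethanol- and small-solvent-metabolizing enzyme that adipocytes also express, had 11.13, 11.36 and 11.47 in wild-type controls and 9.41, 8.97, 9.64 and 10.57 after ventilation. In jnk1-/- mice it had 10.43, 10.09 and 9.05 in controls and 8.19, 9.17, 9.48 and 9.16 after ventilation. The wild-type controls lay above all other arrays. It changed by -1.67 ± 0.42 in wild-type (limma adjusted p = 0.0522), by -0.86 ± 0.42 in jnk1-/- lungs (limma adjusted p = 0.225) and by -1.26 averaged (limma adjusted p = 0.0149). Adipocyte genes also fell after ventilation. In jnk1-/- against wild-type controls, 1 of them was called higher and 0 lower. Of 6 measured, 3 fell in wild-type (Adipoq, Retn and Car3) and 4 in jnk1-/- lungs (also Cidec), and their mean was 9.84 to 10.2 in wild-type controls, 8.12 to 8.98 in ventilated wild-type, 9.75 to 11.1 in jnk1-/- controls and 8.16 to 8.86 in ventilated jnk1-/- lungs. Their part in the change of Cyp2e1 was not tested.

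Cyp2f2, a club cell enzyme that bioactivates naphthalene, had 14.06, 14.24 and 13.99 in wild-type controls, 14.23, 13.33, 13.65 and 13.97 in ventilated wild-type, 13.78, 14.24 and 14.49 in jnk1-/- controls and 13.80, 13.72, 13.13 and 13.57 in ventilated jnk1-/- lungs. It did not pass the test in either genotype, at -0.30 (95% interval -0.85 to 0.25) and -0.62 (-1.17 to -0.06, limma adjusted p = 0.140). None of 5 measured club cell genes passed either. Cyp2s1, an airway enzyme, had an interval above 0 in wild-type lungs (0.76, 95% interval 0.19 to 1.33, limma adjusted p = 0.131) and not in jnk1-/- lungs (-0.07, -0.65 to 0.50). The phenobarbital-inducible Cyp2b10 and the keratinocyte enzyme Cyp2b19 changed by 0.20 and 0.07 in wild-type and by 0.44 and -0.26 in jnk1-/- lungs, and passed in neither. Cyp2d9, Cyp2d13 and Cyp2d34, of a subfamily with many liver members, did not pass, and Cyp2d34 had the lowest adjusted p of the 3 (jnk1-/- ventilation, -0.59, limma adjusted p = 0.0698).

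**Figure D4:**
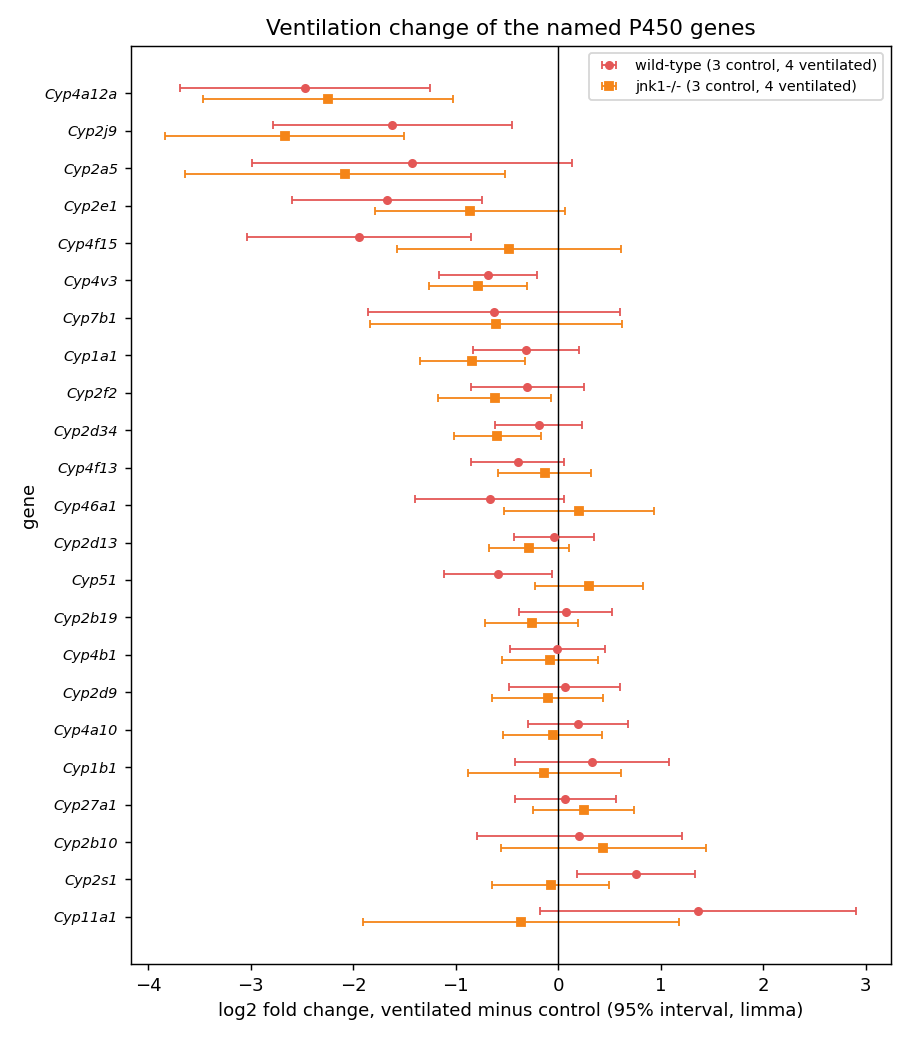
Log2 change after ventilation (horizontal axis, ventilated minus control) with its 95% interval for the 23 named P450 genes (rows, ordered by the change averaged over the genotypes), in wild-type (circles) and jnk1-/- lungs (squares). Cyp4a12a (at -2.47 and -2.24), Cyp2j9 and Cyp4v3 have intervals below 0 in both genotypes, and the intervals of Cyp4b1, Cyp2d9 and Cyp27a1 lie around 0.

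The windows upstream of the start are shown for Cyp1a1, the textbook Ahr target, and for Cyp2j9 and Cyp4v3, which fell with it in jnk1-/- lungs. Cyp4a12a was not matched to a window. Each line gives the 250 bases before the transcript start used by RefSeq (GRCm38.p6), 5′ to 3′ on the gene's strand, with GCGTG, the core of the xenobiotic response element bound by Ahr, in capitals. Cyp1a1 lies on the plus strand at chr9:57697363-57697612, Cyp2j9 on the minus strand at chr4:96591486-96591735 and Cyp4v3 on the minus strand at chr8:45333164-45333413.
Cyp1a1: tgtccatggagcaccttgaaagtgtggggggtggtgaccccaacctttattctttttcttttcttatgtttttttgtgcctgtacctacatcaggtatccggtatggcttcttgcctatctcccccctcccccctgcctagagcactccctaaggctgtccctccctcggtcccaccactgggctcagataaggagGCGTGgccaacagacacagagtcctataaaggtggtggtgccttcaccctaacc
Cyp2j9: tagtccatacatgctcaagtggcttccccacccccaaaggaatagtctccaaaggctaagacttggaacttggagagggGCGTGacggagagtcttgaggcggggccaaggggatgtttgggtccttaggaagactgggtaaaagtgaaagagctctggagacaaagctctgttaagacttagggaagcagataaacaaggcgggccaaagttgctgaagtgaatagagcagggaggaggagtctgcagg
Cyp4v3: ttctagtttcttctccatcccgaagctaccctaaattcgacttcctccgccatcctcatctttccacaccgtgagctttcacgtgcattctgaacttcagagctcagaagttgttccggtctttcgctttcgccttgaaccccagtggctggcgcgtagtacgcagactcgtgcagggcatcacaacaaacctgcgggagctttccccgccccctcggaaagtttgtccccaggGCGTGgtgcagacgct
The core begins 54, 171 and 16 bases before the start. Searched on both strands, GCGTG was present in 28.2% of 32851 windows of this length. It was present in 12 of the 48 members that have a window (25.0%). The windows of Cyp2a5, Cyp2e1 and Cyp4f15, also called lower in the averaged contrast, held 0 cores, and that of Cyp46a1 held 4. Whether the core took part in any change was not tested. TGANTCA, the site of AP-1, the transcription factor that JNK activates, was in 6.7% of all windows and 3 of 48 members (6.25%). TATAAA was in 12.4% of all windows and 17 of 48 members (35.4%), which were 9 of 31 members above the floor and 8 of 17 below it. The shares over all were counted by window, and those of the members by gene, from any window of the gene, so they differ in unit. Several members are copies of a common ancestor, so these windows are not independent. Cyp1a1, Cyp2a5 and Cyp2e1 hold TATAAA, and Cyp2j9 and Cyp4v3 do not.

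Between genotypes, 1 of 64 members passed the test in the controls (4.03% of all probes were called, 1.87% higher and 2.16% lower). Cyp46a1, the cholesterol 24-hydroxylase, had 4.42, 4.93 and 4.90 in wild-type and 3.24, 3.12 and 3.25 in jnk1-/- controls, a difference of -1.55 ± 0.36 (limma adjusted p = 0.0360). These jnk1-/- arrays are those with high muscle and squamous genes, whose part in this difference was not tested. All 3 jnk1-/- controls were at the floor of the authors' table, so the lower level is a bound there. The call was lost when any of 6 single arrays was left out, with adjusted p up to 0.123 (without wild-type control replicate 2). After ventilation the levels were 4.59, 3.09, 4.12 and 4.52 in wild-type and 3.60, 2.86, 3.57 and 3.59 in jnk1-/- lungs, which overlapped. Cyp2e1 was lower in jnk1-/- than in wild-type controls by a log2 difference of -1.46 (95% interval -2.45 to -0.47, limma adjusted p = 0.0994), and Cyp4f13 by -0.77 (-1.26 to -0.29, limma adjusted p = 0.0780). After ventilation no member passed (0.525% of all probes were called, and 10 members had an unadjusted p under 0.05 in limma, against 10.1% of all probes). No member passed the test of a difference between the genotypes' ventilation changes (0.377% of all probes), and 4 had an unadjusted p under 0.05, against 12.9% of all probes.

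Other sterol and vitamin enzymes above the floor did not pass any of these tests. Cyp51, the lanosterol demethylase of cholesterol synthesis, had 8.00, 8.32 and 8.37 in wild-type controls and 7.39, 7.90, 7.90 and 7.38 after ventilation, without overlap, and in jnk1-/- mice 7.98, 8.32 and 7.40 and then 8.11, 8.13, 8.05 and 8.52. It changed by -0.59 (95% interval -1.12 to -0.06) and 0.30 (-0.23 to 0.83), and the difference of 0.89 did not pass (limma adjusted p = 0.300). Cyp27a1, the sterol 27-hydroxylase, changed by 0.07 (-0.42 to 0.56) and 0.25 (-0.24 to 0.74). Cyp7b1, the oxysterol 7-alpha-hydroxylase, changed by -0.63 (-1.86 to 0.60) in wild-type and -0.61 (-1.83 to 0.62) in jnk1-/- lungs. In ventilated jnk1-/- lungs replicate 1 alone, at 2.08 and at the floor of the authors' table, lay far below the other 3. With the authors' values the changes were -0.98 and -0.24, so the size in jnk1-/- lungs is not resolved.

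The control and ventilated groups did not overlap for 11 members in wild-type (21.9% of all probes) and 7 in jnk1-/- lungs (23.5%), and the genotypes did not overlap for 12 members in controls (26.6%) and 3 after ventilation (6.37%). A rule of the kind used for the study's wider gene pool, no overlap between the groups with an unadjusted Welch p under 0.05 and a fold over 1.5, was met by 7 members for ventilation in wild-type (Cyp2e1, Cyp2j9, Cyp4a12a, Cyp4f15, Cyp4v3, Cyp51 and Cyp7b1), with 10.9% of all probes. It was met by 3 for ventilation in jnk1-/- lungs (Cyp1a1, Cyp2j9 and Cyp4a12a; 14.3% of all probes), by 3 for genotype in controls (Cyp11a1, Cyp17a1 and Cyp46a1; 8.84%) and by Cyp4f18 alone for genotype after ventilation (3.54%). The ventilation changes of the genotypes share no arrays. Across the 41 genes above the floor they correlated with r = 0.595, and across all 14761 probes above it with r = 0.477, as a description across genes of the same 14 arrays. The sign was shared by 24 of the 41 (58.5%, of which 19 were lower in both) and by 64.8% of those probes. Across the 23 dim members r was -0.02.

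Genes that work with the P450 enzymes were given by fixed lists. Of 6 measured electron donors and partners, Fdx1 rose by 0.62 (limma adjusted p = 0.0262) and the cytochrome b5 reductase Cyb5r3 changed by -0.66 (limma adjusted p = 0.0340) in jnk1-/- lungs, and none passed in wild-type lungs. Por was not measured under that symbol. Of 11 heme genes, Hmox1, which breaks heme down, rose in both genotypes, by 2.46 ± 0.47 (limma adjusted p = 0.0154) and 2.44 ± 0.47 (limma adjusted p = 0.00715). Its relative Hmox2 changed by -1.13 in jnk1-/- lungs (limma adjusted p = 0.0469), and Ppox, of heme synthesis, was lower in jnk1-/- than in wild-type controls by -1.38 (limma adjusted p = 0.0143).

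Of 6 genes of the Ahr pathway, the repressor Ahrr alone passed, with a change of -0.78 in jnk1-/- lungs (limma adjusted p = 0.0499), and Ahr changed by -0.56 in wild-type and 0.03 in jnk1-/- lungs (limma adjusted p = 0.212 and 0.955). None of 14 nuclear receptors that control P450 genes passed in any comparison. Of 18 genes of cholesterol synthesis, Pmvk rose in both genotypes, by 2.44 and 3.05 (limma adjusted p = 0.000724 and 8.5e-05), and Idi1 fell in jnk1-/- lungs by 1.19 (limma adjusted p = 0.0261). Of 13 retinoid genes, Lrat, Aldh1a2 and Adh1 fell in wild-type lungs and Aldh1a2 in jnk1-/- lungs. Crabp2, a retinoic acid binding protein, was higher in jnk1-/- than in wild-type controls by 3.5 (limma adjusted p = 0.0254). The jnk1-/- control arrays are those with high muscle and squamous genes, whose part in this difference was not tested. The retinol dehydrogenase Adh7 was lower in jnk1-/- than in wild-type ventilated lungs by a log2 difference of -3.33 (limma adjusted p = 0.0299).

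Among 30 other drug-metabolizing enzymes, 4 rose and 0 fell in wild-type lungs, and 1 rose and 7 fell in jnk1-/- lungs. Those that rose in wild-type were the glutathione transferases Gsta1 (3.08 ± 0.58) and Gsta2 (4.06 ± 0.81), the carbonyl reductase Cbr3 (2.02 ± 0.28) and the aldo-keto reductase Akr1b8 (1.35 ± 0.34), and Akr1b8 rose in jnk1-/- lungs as well. In jnk1-/- lungs the strongest calls among those that fell were the glutathione transferase Gstt2 (-2.29 ± 0.41, with 2 of 4 ventilated lungs at the authors' floor), the carboxylesterase Ces1g (-1.88 ± 0.36) and the transferase Gstt3 (-0.76 ± 0.18). By its own criteria, the study listed Gstt2 among genes regulated in both genotypes, lower after ventilation in each. No gene of this list passed the test of a difference between the genotypes' changes. 2 P450 genes carry other symbols and were outside the rule. Tbxas1, the thromboxane synthase, changed by 0.10 in wild-type and -2.90 in jnk1-/- lungs (limma adjusted p = 0.920 and 0.00116). The difference of -2.99 passed the test (limma adjusted p = 0.0440), and its jnk1-/- controls were above the wild-type controls by 1.84 (limma adjusted p = 0.0337). The part of the high muscle and squamous genes of the jnk1-/- controls in these differences was not tested. All 4 ventilated jnk1-/- lungs were at the floor of the authors' table for Tbxas1, so the size of its fall is not resolved, and with the authors' values the difference between the genotypes' changes was -2.21 and did not pass (limma adjusted p = 0.0779). Ptgis, the prostacyclin synthase, passed in none. Of 8 hepatocyte genes none passed in any of the 5 planned comparisons, and their mean was 2.42 to 4.27 over the 14 arrays.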

How the data were processed

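RNA of 14 mouse lungs was hybridized to CodeLink UniSet I 20K arrays stained with Cy5. The deposited array files hold log2 intensities that the authors had not normalized between arrays, and the authors' table holds log2 values after cyclic loess with a floor at 3.122. The methods describe a filter on quality flags, which were not used here. Here cyclic loess was run over all pairs of arrays (limma 3.58.1, R 4.3.3, span 0.7, 3 iterations), with values at the lowest number deposited left out. Those values, and the lowest 1% of the others, were then set to -0.63. On values above the floor the result correlated with the authors' table at 0.990 or more. 4 groups were fitted in limma (lmFit, eBayes) over 19621 probes, with Benjamini-Hochberg adjustment and a threshold of 0.05, and 5 contrasts were planned. The number of arrays limits the precision. Each array was of 1 animal per the methods, and p-values measure the spread between these animals.

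Groups came from the sample titles, and 1 title of a ventilated wild-type sample is spelled differently from the rest. Members and gene lists were chosen with earlier results of these data known. Named are the members called in a planned contrast, the 15 with the highest mean, and a fixed list of 14 (13 were on the array; Cyp26b1 was the other). Of other lists, up to 4 called genes per contrast are named. Cyp1a2 and Cyp4f18, and the genes listed by the overlap rule, fall outside this rule and were chosen after their values were seen. Positions and upstream windows are those of RefSeq on GRCm38.p6; 48 of 64 members had a window. Lists of type 2, endothelial, fibroblast, macrophage, steroidogenic and steroid-partner genes were also counted: 0 or 1 gene of each passed for ventilation in either genotype, except 3 fibroblast genes in jnk1-/- lungs. The fit was tested on simulated data. Alternatives were quantile normalization, median centring, the authors' values, the methods' t-test, filters, array weights, the replicate block and leaving out arrays. Plots were drawn with matplotlib 3.10.9 (Python 3.11.15).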

Additional observations from a re-analysis of the deposited data

Results flagged for a closer look

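Within each group of 4 arrays, 46 groups of the 23 named P450 genes were searched for an array whose distance from its nearest neighbour was most of the group's range, by Dixon's 95% criterion. 5 groups met it, and chance alone marks about 1 group in 20. All 5 were of ventilated jnk1-/- lungs. Cyp4f15 read 5.86 on replicate 3, against 7.82 on the next array. Cyp7b1 read 2.08 on replicate 1, against 4.57. Cyp46a1 read 2.86 on replicate 2, against 3.57, Cyp4a10 read 8.85 on replicate 1, against 8.44, and Cyp51 read 8.52 on replicate 4, against 8.13. Replicate 1 was thus marked for both Cyp7b1 and Cyp4a10, and replicates 2, 3 and 4 for 1 gene each. The causes were not tested.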

How the results depend on the processing

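No member was called for genotype after ventilation or for the difference of the ventilation changes under any alternative run, and no called change reversed its sign. The other counts were small and moved. Ventilation in wild-type called 1 member, against 0 with quantile normalization and the methods' t-test, 3 with median centring and with dim probes left out, 4 with the authors' values and 8 with array weights (2 of them higher), and 0 to 3 when 1 array was left out. Ventilation in jnk1-/- lungs called 4, against 0 with the methods' t-test and 1 when its groups were fitted alone, and 1 to 5 when 1 array was left out. Genotype in controls called 1, against 0 with quantile normalization, the methods' t-test and its groups fitted alone, 2 with the authors' values, 3 with median centring and with array weights, and 0 to 3 when 1 array was left out. The averaged contrast called 7, and 4 to 9 when 1 array was left out (4 without wild-type control replicate 3). Without both wild-type control replicates 2 and 3, a choice made after seeing the data, these 4 counts were 0, 2, 0 and 3. Counting genes above the floor on at least 3 arrays gave 45 and on all 14 arrays 31, against 41. With the authors' values, Cyp2e1, Cyp2j9 and Cyp4f15 also passed for ventilation in wild-type lungs (limma adjusted p = 0.0466, 0.0146 and 0.0497). Cyp2d34 also passed for ventilation in jnk1-/- lungs (limma adjusted p = 0.0399) and Cyp4f13 for genotype in controls (limma adjusted p = 0.0449). The causes of these moves were not tested.

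Samples with the same replicate number deviated together no more than others (r -0.04 to 0.08 over 19 pairs, against -0.06 to 0.10 for other numbers). No pairing by number was thus seen, although a weak one could be missed with so few arrays. With the replicate block the counts were 1 and 3 for ventilation in wild-type and jnk1-/- lungs, 0 for genotype in controls and 5 for the averaged contrast, and 2 arrays correlated best with their own number.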
